A study of Mus musculus with 2 samples.

Results

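The genes described here encode 10 matricellular proteins, secreted proteins that sit in the extracellular matrix and regulate how cells attach to it rather than forming its fibres. They are periostin (Postn), the tenascins Tnc, Tnn and Tnxb, the thrombospondins Thbs2, Thbs3, Thbs4 and Comp, and the osteonectin relatives Sparc and Sparcl1. They were found by symbol, and all 10 were present among the 34285 genes counted in both libraries. The libraries were single-cell RNA-seq (10x) of mandibular first molars and the tissue around them, from C57BL/6J mice at PN15.5 (PN, postnatal day), when the molar root is forming. Mice of the Lipo-Clo group received clodronate liposomes, which kill the phagocytes that take them up, by intraperitoneal injection of 40 μg per g body weight first at PN3.5, then at PN6.5 and PN9.5 and last at PN12.5. Mice of the Lipo-PBS group received the same volume of vehicle liposomes on the same days. Each group is 1 library, and the number of mice behind a library is not given in the sources used here. With 1 library per group, no test between the groups was possible, no p-value is given, and the treatment and the library cannot be told apart. Intervals are exact 95% intervals and cover counting error only.

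Periostin binds collagen and integrins, is abundant in the periodontal ligament, the tissue that anchors the root to bone, and is known to aid collagen cross-linking. Tenascins are large modular glycoproteins. Tenascin-C (Tnc) marks developing and remodelling mesenchyme, tenascin-N (Tnn, also called tenascin-W) is found in bone and periodontal tissue, and tenascin-X (Tnxb) belongs to loose connective tissue, where its loss makes skin hyperextensible. Thrombospondins bind calcium, collagens and cell surface receptors. Thrombospondin-2 limits angiogenesis and matrix turnover, and thrombospondin-4 and Comp are known from tendon and cartilage. Sparc binds collagen in mineralizing tissues, and Sparcl1 is its relative.

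Of the 10 genes, 8 had an entry in the RefSeq promoter table of build GRCm38.p6, and Sparcl1 and Comp had none. Below are the 150 bases before and 20 bases after an annotated start for 4 genes: Postn, Tnn and Thbs2, whose levels followed one another across the mesenchyme, and Tnc, whose levels did not. The capitals mark the letters TATAAA, or TTTATA, which is the same motif on the other strand. The Postn stretch is its second annotated start (chr3:54360957-54361126, plus strand), with the motif 26 bases before the start. The Tnc stretch is its first annotated start (chr4:64046996-64047165, minus strand) and the Thbs2 stretch is at chr17:14694243-14694412 (minus strand), both with the motif 126 bases before the start. The Tnn stretch (chr1:160153556-160153725, minus strand) held no match.
Postn: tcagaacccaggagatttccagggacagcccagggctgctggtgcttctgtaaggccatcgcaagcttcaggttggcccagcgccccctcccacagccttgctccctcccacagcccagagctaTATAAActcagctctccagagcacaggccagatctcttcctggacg
Tnn: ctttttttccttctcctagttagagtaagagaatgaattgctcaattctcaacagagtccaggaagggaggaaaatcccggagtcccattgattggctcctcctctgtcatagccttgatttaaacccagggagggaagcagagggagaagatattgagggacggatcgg
Thbs2: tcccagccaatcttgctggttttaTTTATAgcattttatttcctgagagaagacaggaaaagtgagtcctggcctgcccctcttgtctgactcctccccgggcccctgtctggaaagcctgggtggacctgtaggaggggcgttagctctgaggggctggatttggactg
Tnc: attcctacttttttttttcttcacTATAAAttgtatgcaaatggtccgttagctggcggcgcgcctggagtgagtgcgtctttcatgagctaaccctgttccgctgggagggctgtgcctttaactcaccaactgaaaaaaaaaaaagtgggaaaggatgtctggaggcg
Over the whole 300-base windows, 3 of the 8 genes held the motif on either strand, and 13.6% of all 32851 promoters in the table did. Postn and Tnc had 2 windows each and were counted by gene, while the 13.6% is per window, so the shares differ in unit. A match is a stretch of letters and was not tested as a binding site.

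After filtering, 8254 Lipo-Clo cells and 8261 Lipo-PBS cells remained, with a median of 2567 and 2678 UMIs per cell. The cluster named macrophage held 116 of the Lipo-Clo cells (1.41%) and 168 of the Lipo-PBS cells (2.03%). Another cluster reached 5 macrophage, 5 neutrophil, 5 cycling and 3 osteoclast markers and was left unnamed. It held 353 Lipo-Clo and 162 Lipo-PBS cells, so the counts of the named cluster are not a tally of all macrophages. The libraries also differed in ways that touch every gene: mitochondrial genes gave 0.37% of UMIs in Lipo-Clo and 1.73% in Lipo-PBS, and a cluster carrying markers of several lineages held 10 Lipo-Clo and 727 Lipo-PBS cells and was left unnamed. The 2 libraries shared 23 of the cell barcodes kept. Cells were clustered without the 10 genes, so that none of them helped to draw a cluster. Of the 27 clusters, those named by markers of connective tissue, ligament, follicle, pulp, bone or odontoblasts formed the dental mesenchyme, with 4203 Lipo-Clo and 4040 Lipo-PBS cells. The cluster named cycling also reached 6 mesenchyme, 5 ligament, 4 follicle and 3 osteoblast or cementoblast markers. It was kept as a class of its own.

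Most of the genes were mesenchymal. Levels are given as UMIs per 1000000 UMIs of the class or state (CPM), and are compared within a gene only. Postn was at 2015 CPM in Lipo-Clo mesenchyme and 2872 CPM in Lipo-PBS mesenchyme. In the summed blood and lymphoid classes (neutrophils, B cells, T or NK cells and erythroid cells), which should lack it, Postn was at 206 and 329 CPM, a level taken here as that of free RNA. A Postn UMI was present in 69.5% and 78.4% of mesenchymal cells, and in 18.3% and 20.2% of the blood and lymphoid cells, whose median depth was 2455 and 1952 UMIs against 2813 and 2958 in mesenchyme. Tnn was at 184 and 360 CPM in mesenchyme against 21.8 and 40.0 CPM in the blood classes. In the same order, Thbs2 was at 303 and 365 CPM against 29.5 and 40.5 CPM, and Thbs4 at 586 and 729 CPM against 75.8 and 133 CPM. These genes were thus highest in mesenchyme, or in the cycling cells, in both libraries. Cycling cells held Tnn at 302 CPM (Lipo-Clo) and 381 CPM (Lipo-PBS), above the mesenchyme as a whole beyond counting error in Lipo-Clo and not in Lipo-PBS. Tnxb stood at 44.0 and 99.3 CPM in mesenchyme, and Thbs3 at 39.2 and 60.9 CPM, and both were at 10.9 CPM or less in the blood classes. Neither was confined to mesenchyme. Perivascular cells held Tnxb at 27.8 and 64.4 CPM, and Thbs3 at 36.7 and 29.6 CPM from 29 and 39 UMIs. Cycling cells held Thbs3 at 27.5 and 41.9 CPM. Sparc, which gave a UMI in 95.8% and 97.8% of mesenchymal cells, was at 10297 and 10692 CPM there, and at 1119 and 1407 CPM in the blood classes.

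**Figure D1:**
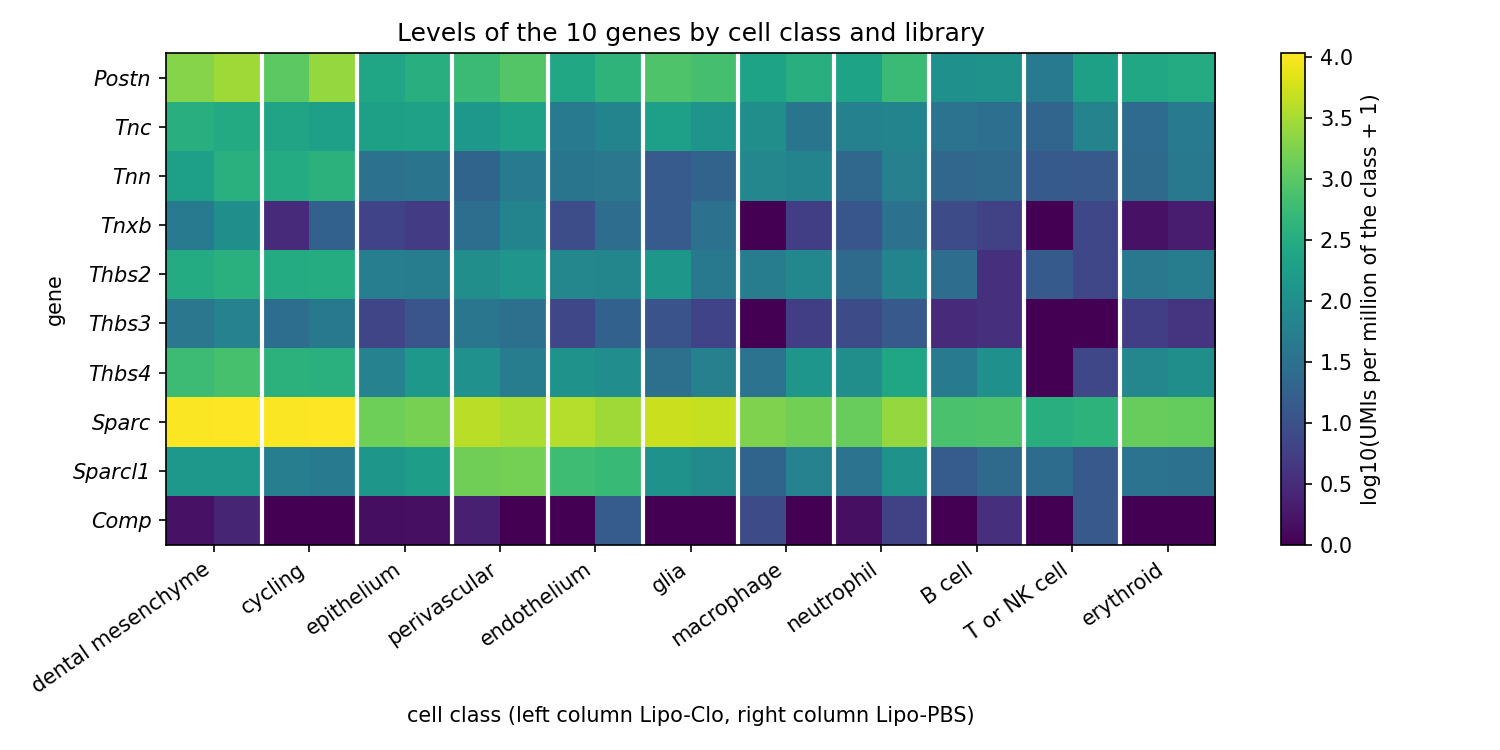
Levels of the 10 genes in 11 cell classes, as log10 of CPM plus 1, with Lipo-Clo in the left column and Lipo-PBS in the right column of each class. Postn, Tnn, Thbs2, Thbs4 and Sparc are brightest in dental mesenchyme and cycling cells, and Sparcl1 is brightest in perivascular cells and endothelium.

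Sparcl1 had another pattern. It was highest in perivascular cells, the pericytes and smooth muscle around vessels, at 1444 CPM (Lipo-Clo) and 1511 CPM (Lipo-PBS), where 75.3% and 83.0% of cells held a UMI. Endothelium followed at 590 and 530 CPM. Mesenchyme held 141 and 138 CPM, and epithelium 134 and 183 CPM. Mesenchyme and epithelium did not differ beyond counting error in Lipo-Clo. Sparc itself was also above the blood level in glia (5175 and 4802 CPM), perivascular cells (4102 and 3460 CPM) and endothelium (3749 and 2816 CPM).

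Glia and perivascular cells carried Postn, while Tnn and Thbs4 in glia were no higher than in blood cells. Glial Postn was at 835 CPM (Lipo-Clo) and 691 CPM (Lipo-PBS), and 53.1% and 53.9% of glial cells had a UMI. Perivascular Postn was at 552 and 887 CPM. The blood classes differed in Postn, with neutrophils at 216 and 564 CPM and B cells at 106 and 113 CPM. Tnn in glia was at 13.2 and 17.9 CPM and Thbs4 at 29.6 and 55.4 CPM, which are below the levels of the blood classes. Glial Thbs2 was at 135 CPM in Lipo-Clo, from 41 UMIs, and at 41.1 CPM in Lipo-PBS. Epithelium carried Tnc at 194 and 200 CPM, against 41.4 and 49.4 CPM in the blood classes and 349 and 291 CPM in mesenchyme. Tnc was also at 226 and 186 CPM in cycling cells, 187 and 120 CPM in glia, and 138 and 204 CPM in perivascular cells. Comp, the thrombospondin of cartilage, was barely detected at this depth, with 8 UMIs in Lipo-Clo mesenchyme and 22 in Lipo-PBS mesenchyme.

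Clustering the mesenchyme again gave 10 states, called M0 to M9, of which 7 took a name from markers and 3 did not. M0 was fibroblast-like (led by Clec3b, Cd34 and Col14a1), M1 osteoblast or cementoblast-like (Ibsp, Ank), M2 dental follicle-like (Moxd1, Apcdd1), M6 periodontal ligament-like (Edil3, Matn4), M5 and M8 dental papilla or pulp-like (Lrrc4c, and Trf with Ctnnd2) and M9 odontoblast-like (Dspp). M3, led by Pappa2, Crispld2 and Col16a1, reached 2 of the ligament markers and stayed unnamed, as did M4, led by Igfbp3 and Sfrp2. M7 was led by haemoglobin genes, which gave 35.6% of its UMIs in Lipo-Clo and 34.1% in Lipo-PBS.

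Postn had its highest levels in unnamed M3, follicle-like M2 and ligament-like M6 in Lipo-PBS, and in M2 and M6 in Lipo-Clo. In Lipo-PBS it was highest in M3 (6348 CPM), followed by M2 (4795 CPM), M6 (4260 CPM) and M0 (3016 CPM). In Lipo-Clo the order began with M2 (5556 CPM), M6 (3329 CPM) and M0 (2872 CPM), and M3 came after them (1772 CPM). Each of these neighbours differed beyond counting error. The pulp-like and odontoblast-like states M5, M8 and M9 held between 190 and 351 CPM in both libraries, which is near the level of the blood classes. In M2, 99.3% and 96.8% of cells had a Postn UMI, and in M8 20.1% and 23.6% did.

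Tnn was narrower. It was highest in M3 in both libraries, at 443 CPM (Lipo-Clo) and 1401 CPM (Lipo-PBS), and M3 cells, 15.0% and 9.5% of the mesenchyme, gave 41.1% and 44.4% of its Tnn UMIs. M2 followed in Lipo-Clo (305 CPM) without differing from M6 (256 CPM), and M6 followed in Lipo-PBS (503 CPM). In M0, M5, M8 and M9, Tnn stayed between 22.2 and 62.3 CPM.

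Thbs2, whose product limits vessel growth, followed Postn. It was highest in M2, at 644 CPM (Lipo-Clo) and 973 CPM (Lipo-PBS), and next in M3 (552 and 654 CPM) and M6 (479 and 662 CPM), which did not differ from each other beyond counting error. M5, M8 and M9 were the lowest, at 28.3 to 50.3 CPM.

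Tnc was highest in the dental papilla or pulp-like states. M8 was highest (2455 and 2715 CPM) and M5 second (1004 and 1075 CPM), and together they gave 59.9% and 47.9% of the mesenchymal Tnc UMIs. M8 had the lowest median depth of the states, at 1223 and 1444 UMIs per cell, and also reached 2 glia, 2 neutrophil and 3 erythroid markers. M4 came next in Tnc at 451 and 459 CPM. In M8, 88.3% of Lipo-Clo cells and 90.5% of Lipo-PBS cells had a UMI, and in M0 11.5% and 13.7% did. Odontoblast-like cells (M9), which arise from the papilla, held 49.6 and 111 CPM, the lowest level of the 10 states in Lipo-Clo, and did not differ from M0 beyond counting error in Lipo-PBS.

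Within the mesenchyme, Tnxb was almost wholly in the fibroblast-like state. M0 was at 387 CPM (Lipo-Clo) and 457 CPM (Lipo-PBS), and gave 91.7% and 85.5% of the mesenchymal Tnxb UMIs. Of all Tnxb UMIs of a library, M0 gave 79.5% and 62.7%. M7 followed at 46.3 and 66.1 CPM, and the other states were at 16.0 CPM or below. In M5 of Lipo-Clo, 0 of 436 cells had a UMI. With 3 cells as the floor this allows a share of up to 0.688% of cells with a UMI, and it does not limit the share of cells that express the gene. Thbs3, a thrombospondin of skeletal tissue, was also highest in M0, at 99.9 and 122 CPM, but M3 (51.4 and 103 CPM), M4 (45.6 and 74.9 CPM) and M6 (80.9 and 51.9 CPM) held it too. M0 did not differ beyond counting error from the next state, which was M6 in Lipo-Clo and M3 in Lipo-PBS.

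**Figure D2:**
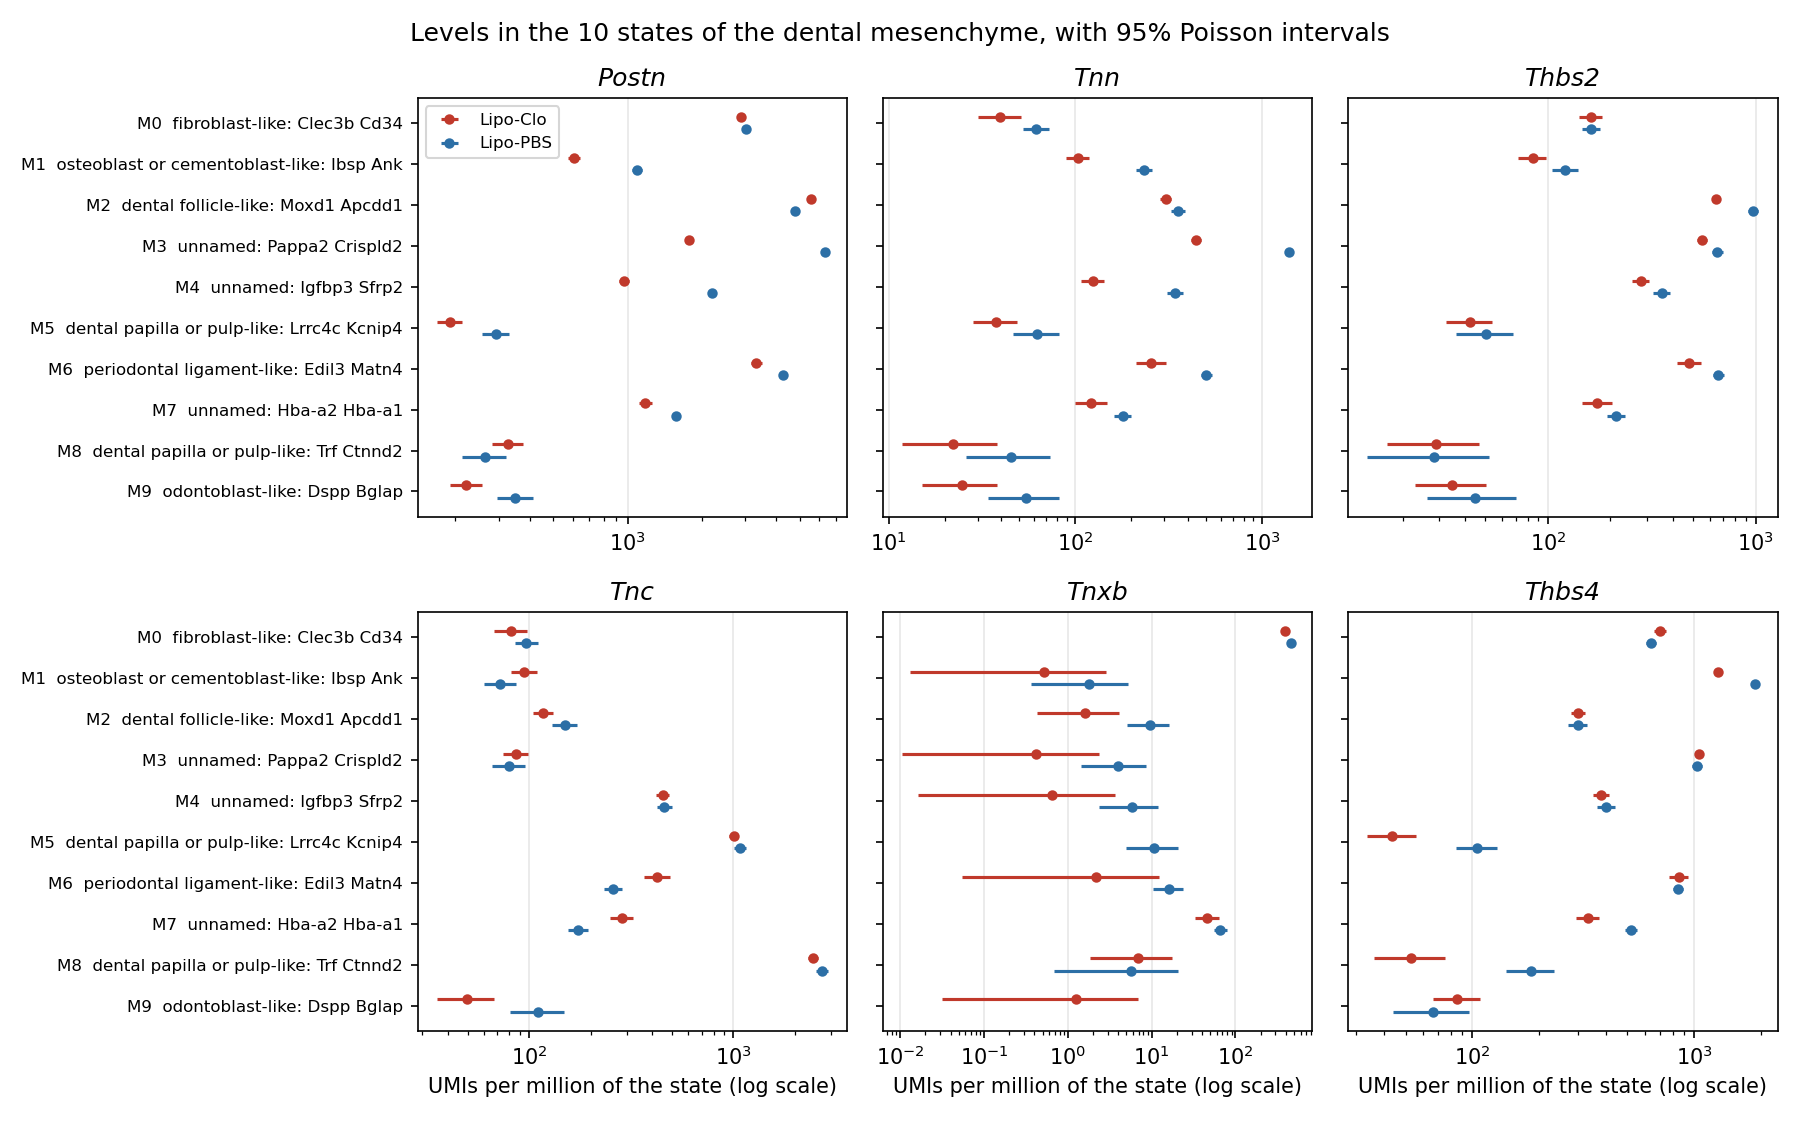
CPM (log scale) of Postn, Tnn, Thbs2, Tnc, Tnxb and Thbs4 in the 10 mesenchymal states, Lipo-Clo in red and Lipo-PBS in blue, with exact 95% Poisson intervals and no point where no UMI was counted. Postn and Tnn separate the libraries most in M3, Tnc peaks in M8 and M5, and Tnxb stands apart in M0.

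Thbs4 and Sparcl1 peaked in the osteoblast or cementoblast-like state. Thbs4 was highest in M1, at 1280 CPM (Lipo-Clo) and 1877 CPM (Lipo-PBS), ahead of M3 (1052 and 1035 CPM). Sparcl1, within the mesenchyme, was also highest in M1 (411 and 379 CPM), then in M2 (262 and 186 CPM), which did not differ from M0 beyond counting error in Lipo-PBS. Sparc, present in nearly every mesenchymal cell, was highest in unnamed M3 (15955 and 22079 CPM) and odontoblast-like M9 (16073 and 18456 CPM), with M3 above M9 in Lipo-PBS and no difference beyond counting error in Lipo-Clo. It was lowest in pulp-like M5 (2341 and 2309 CPM) and M8 (1863 and 2483 CPM), the states where Tnc peaked. No state held more than 11 Comp UMIs in either library.

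Likeness across the states was described by Pearson's r of log2(CPM + 10) over the 10 states in each library, with no p, since the states share a library, its depth and its free RNA. Among the 9 genes other than Comp, Postn and Thbs2 were most alike by the lower of both r, with r = 0.90 in Lipo-Clo and 0.95 in Lipo-PBS. Tnn and Thbs2 had r of 0.92 and 0.87, and Postn and Tnn 0.73 and 0.81. Tnc and Sparc ran opposite to each other, with r of -0.91 and -0.87.

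Over all genes in use, those most like each gene were picked by the lower of both r, so a shared pattern over the states follows from the choice. Nearest to Postn were Ptgfr, a prostaglandin receptor (lower r 0.95), Ptgfrn (0.94) and Igsf10 (0.92), and Ptgfr was also among the nearest to Thbs2, after Itgb5 (0.94) and Maf (0.93). Tnn was nearest to Col16a1 (0.92), Eya1 (0.88) and Npnt (0.88), the last of which encodes an integrin ligand. Tnc was nearest to Tenm4 (0.96), Mir99ahg (0.92) and Sox9 (0.92), a transcription factor of cartilage and neural crest derivatives. Tnxb was nearest to Clec3b (0.99), Cd34 (0.97) and Col14a1 (0.92), all of which marked M0. Sparc was nearest to the collagen I genes Col1a2 (0.99) and Col1a1 (0.97) and to Fkbp7 (0.97). For Thbs4 they were Olfml2b (0.90), Eya4 (0.89) and Lrrc17 (0.89), for Thbs3 Tagln2 (0.83), Sntb2 (0.82) and Aspn (0.82), and for Sparcl1 they included Reck (0.80) and Irf2bpl (0.74).

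The study compared Lipo-Clo with Lipo-PBS to learn what root mesenchyme does when macrophages are depleted. Over the whole mesenchyme, 3 of the genes were past 1.5-fold lower in Lipo-Clo and 0 were past it higher, among the 9 in use, meaning with a UMI in at least 10% of mesenchymal cells of either library. Of all 4719 genes in use, 5.09% were past 1.5-fold lower and 0.869% past it higher. The 3 were Tnxb, with a log2 ratio of -1.18 (interval -1.32 to -1.04), Tnn, with -0.96 (-1.03 to -0.89), and Thbs3, with -0.63 (-0.79 to -0.48). The intervals of the first 2 lay wholly past the limit of 0.58 on the log2 scale, and that of Thbs3 crossed it. At 2-fold, 1 gene (Tnxb) was past the limit lower and 0 higher, against 0.932% and 0.148% of all genes in use. At a limit of 0.32 on the log2 scale, 4 were past it lower, Postn being the added one, and 0 higher, against 18.3% and 14.9%.

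The other genes in use stayed within 1.5-fold. Postn had a log2 ratio of -0.51 (-0.53 to -0.49), Thbs4 -0.32 (-0.36 to -0.27) and Thbs2 -0.27 (-0.33 to -0.21). Sparc had -0.05 (-0.06 to -0.04) and Sparcl1 0.03 (-0.06 to 0.13). Tnc was the only gene of the 9 with an interval above 0, at 0.26 (0.20 to 0.33). Counts over the mesenchyme are large, and such intervals left out 0 on the lower side for 36.6% of all genes in use and on the higher side for 36%. The median of the 9 genes was -0.32, and -0.41 with Comp, whose own log2 ratio of -1.53 rests on 30 UMIs. The median of all genes in use was -0.01, and 50.9% of them were below 0.

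**Figure D3:**
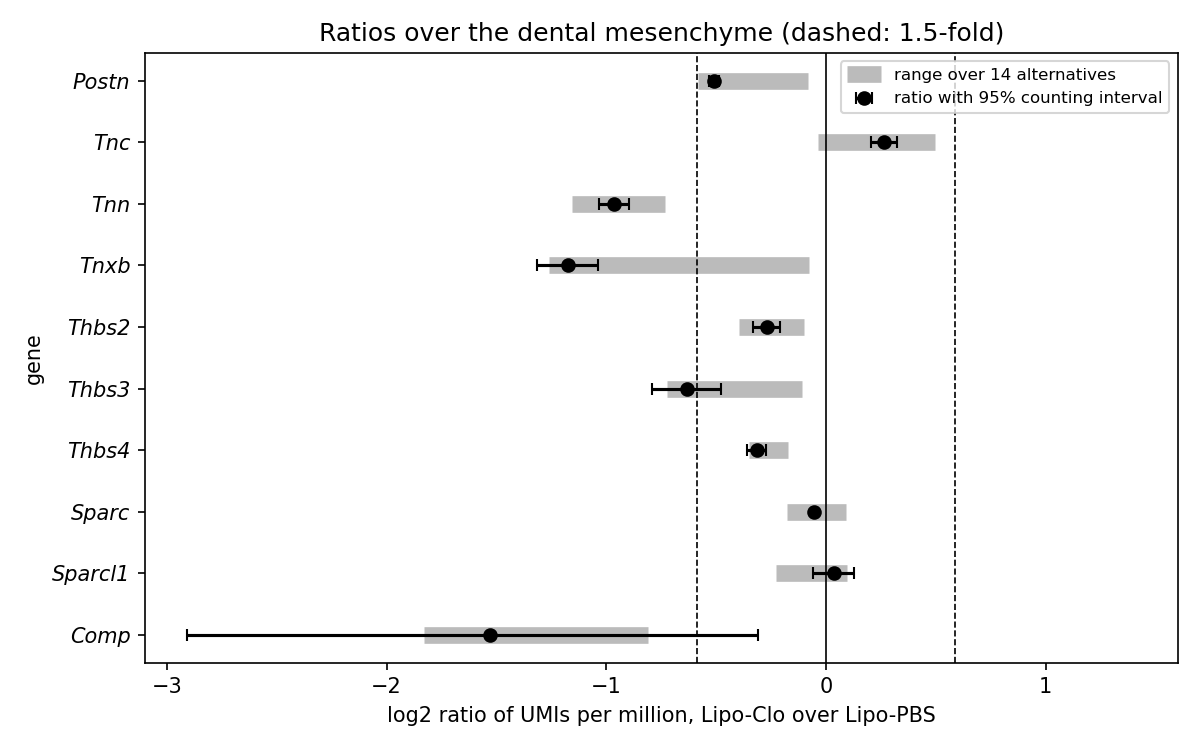
Log2 ratio of CPM over the dental mesenchyme, Lipo-Clo over Lipo-PBS, with exact 95% counting intervals (black) and the range of the ratio over 14 alternative ways of processing (grey bars). Tnn stays beyond the dashed 1.5-fold line in all 14, while the bars of Tnxb, Thbs3 and Postn reach close to 0.

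The libraries held the mesenchymal states in different shares. The fibroblast-like state M0 was 14.4% of Lipo-Clo mesenchyme (607 cells) and 23.8% of Lipo-PBS mesenchyme (963 cells), and ligament-like M6 was 3.76% (158 cells) and 12.4% (500 cells). M2 was larger in Lipo-Clo, at 16.0% (673 cells) against 10.02% (405 cells). So were the states where Tnc peaked, M5 at 10.4% against 5.79% and M8 at 9.35% against 4.93%. M1, M3, M4 and M9 were also larger in Lipo-Clo, and M7 was smaller. When the 10 states were given the same weights in both libraries, the ratio of Tnxb was -0.34, that of Thbs3 -0.38 and that of Tnc 0.01, while Tnn was at -1.16 and Postn remained at -0.51. With the 19 finer subclusters weighted alike, a setting added after the data had been seen, Tnxb was at -0.08, Thbs3 at -0.11 and Postn at -0.08, and Tnn at -0.92 was the only one of the 9 genes still past 1.5-fold. Some finer subclusters separated largely by library, with as few as 14 Lipo-Clo cells in one and 28 Lipo-PBS cells in another. Giving such groups equal weight can remove a difference between the libraries, so these values do not tell shares of states from other differences. The share of a state among the cells recovered and its share in the tissue cannot be told apart here.

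Within the states, Tnn was lower in Lipo-Clo in all 8 states with at least 50 of its UMIs, by intervals that left out 0. Over all pairs of a gene and a state with that many UMIs, 14.5% were lower by this measure and 11.3% higher. States on opposite sides of 0 were found for 6 of the 9 genes in use over the mesenchyme and for 8.09% of all genes in use. The log2 ratio was lowest in M3 (-1.66, interval -1.77 to -1.55), M4 (-1.46, -1.72 to -1.21) and M1 (-1.18, -1.43 to -0.93), and nearest to 0 in M2 (-0.23, -0.39 to -0.06). Of the 8 states, M0 (39.7 and 61.8 CPM) and M5 (37.6 and 62.3 CPM) held Tnn near its level in the blood classes (21.8 and 40.0 CPM). M7, also among the 8, was the state led by haemoglobin genes. Tnn was also lower in the summed blood classes, at -0.88 (-1.30 to -0.44), where it is taken as free RNA. It was at -1.42 in neutrophils and -0.78 in erythroid cells, and in B cells (-0.21) its interval held 0.

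Postn was lower in 8 of 10 states, higher in 1 and neither in 1. Of the 8, M5 (190 and 291 CPM) and M9 (222 and 351 CPM) held Postn near its level in the blood classes (206 and 329 CPM). M7, also among the 8, was the state led by haemoglobin genes. The gap in Postn was widest in M3, with a log2 ratio of -1.84 (-1.89 to -1.79) from 4241 and 9638 UMIs. Per cell, scaled to 10000 UMIs, the median M3 cell held 13.4 Postn UMIs in Lipo-Clo (quartiles 6.92 and 24.4) and 35.1 in Lipo-PBS (17.2 and 94.0). The upper quartile of the Lipo-Clo cells thus lay below the Lipo-PBS median. These are cells of 1 library per group and not replicates, and M3 separated largely by library at a finer resolution, described below. M4 followed with -1.18 (-1.27 to -1.09) and M1 with -0.85 (-0.95 to -0.74). In M2, the follicle-like state, Postn was higher in Lipo-Clo, at 0.21 (0.17 to 0.26), and in M0 it was slightly lower, at -0.07 (-0.13 to -0.02). In M3, 3 of the 8 genes in use there were past 1.5-fold lower (Postn, Tnn and Thbs3, the last at -1.0) and 0 were past it higher, where 11.4% and 6.51% of all genes in use were. Sparc in M3 was at -0.47 (-0.49 to -0.45), and Thbs4 was at 0.02 (-0.07 to 0.12).

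Thbs2 was lower in 6 of 8 states and higher in 0, with -0.59 (-0.70 to -0.49) in M2 as its lowest ratio. Tnxb in M0, where it is expressed, had a ratio of -0.24 (-0.39 to -0.09), well short of its ratio over the whole mesenchyme. Tnc was lower in 3 states and higher in 3, and in its peak states M8 and M5 it was at -0.15 (-0.26 to -0.03) and -0.10 (-0.22 to 0.02). Thbs4 was at -0.55 (-0.63 to -0.48) in M1, its peak state.

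**Figure D4:**
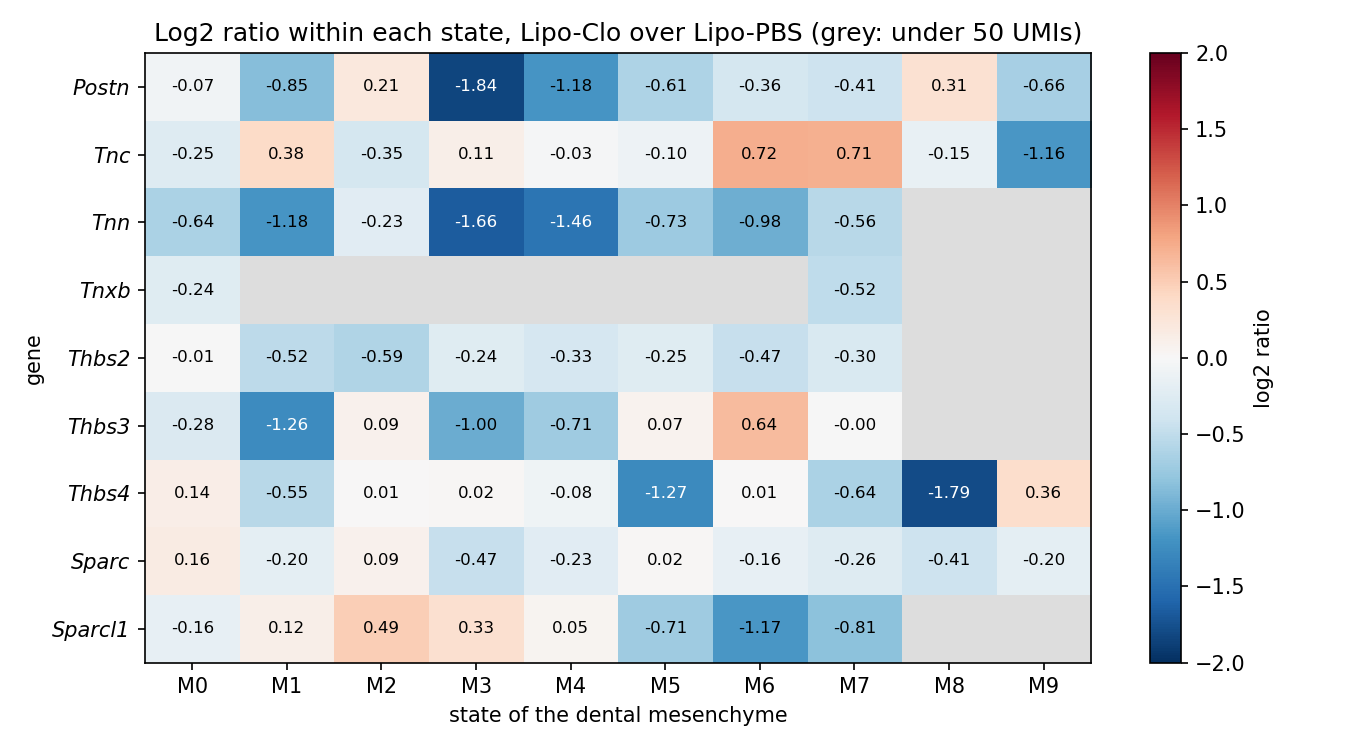
Log2 ratio of CPM within each mesenchymal state, Lipo-Clo over Lipo-PBS, for the 9 genes in use, in blue where lower and red where higher in Lipo-Clo, and grey under 50 UMIs. The row of Tnn is blue in all its 8 states, and Postn is darkest in M3 (-1.84) and pale red in M2 (0.21).

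At a finer resolution, M3 and M2 separated largely by library. M3 broke up into F6 (led by Pappa2, Crispld2 and Pkdcc), with 512 Lipo-Clo and 28 Lipo-PBS cells, F13 (led by Aspn, Pappa2 and Npnt), with 14 and 262 cells, and F14, with 115 and 83 cells, of which 64.1% were M3 cells and the rest came from other states. By its markers F13 took the name periodontal ligament-like, and F14 that of osteoblasts or cementoblasts. F10 and F11, drawn mostly from ligament-like M6 (85.7% and 85.1% of their cells), were named osteoblast or cementoblast-like and fibroblast-like, so the ligament name passed from M6 to a fraction of M3 at this resolution. M2 broke up into F3, with 583 and 97 cells, and F12, with 31 and 283 cells. Of the 19 finer subclusters, 5 had at least 80% of their cells from 1 library, and a subcluster of that kind may be a library rather than a cell type.

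Postn was lower in Lipo-Clo within each of the subclusters drawn mostly from M3: 1743 against 2817 CPM in F6, 2891 against 7437 CPM in F13 and 1734 against 2953 CPM in F14. In both subclusters of M2 it was higher in Lipo-Clo, at 5460 against 3097 CPM in F3 and 8277 against 5362 CPM in F12. Among the 14 finer subclusters with at least 50 cells in each library, Postn was lower in 6, higher in 4 and neither in 4. Over all pairs of a gene and one of these subclusters with at least 50 UMIs, 11.6% were lower and 9.6% higher. Tnn was lower in 9 of the 11 of these with at least 50 of its UMIs and higher in 0. Outside the 11, Tnn in F12 was at 447 CPM in Lipo-Clo, from 31 cells, against 285 CPM. Tnxb in F7, where it was highest, was at 670 against 651 CPM, and in F0 at 319 against 301 CPM, and neither interval left out 0. In F16, also drawn mostly from M0, Tnxb was lower, at 131 against 241 CPM from 18 and 53 UMIs. Its log2 ratio there was -0.88 (-1.74 to -0.09).

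**Figure D5:**
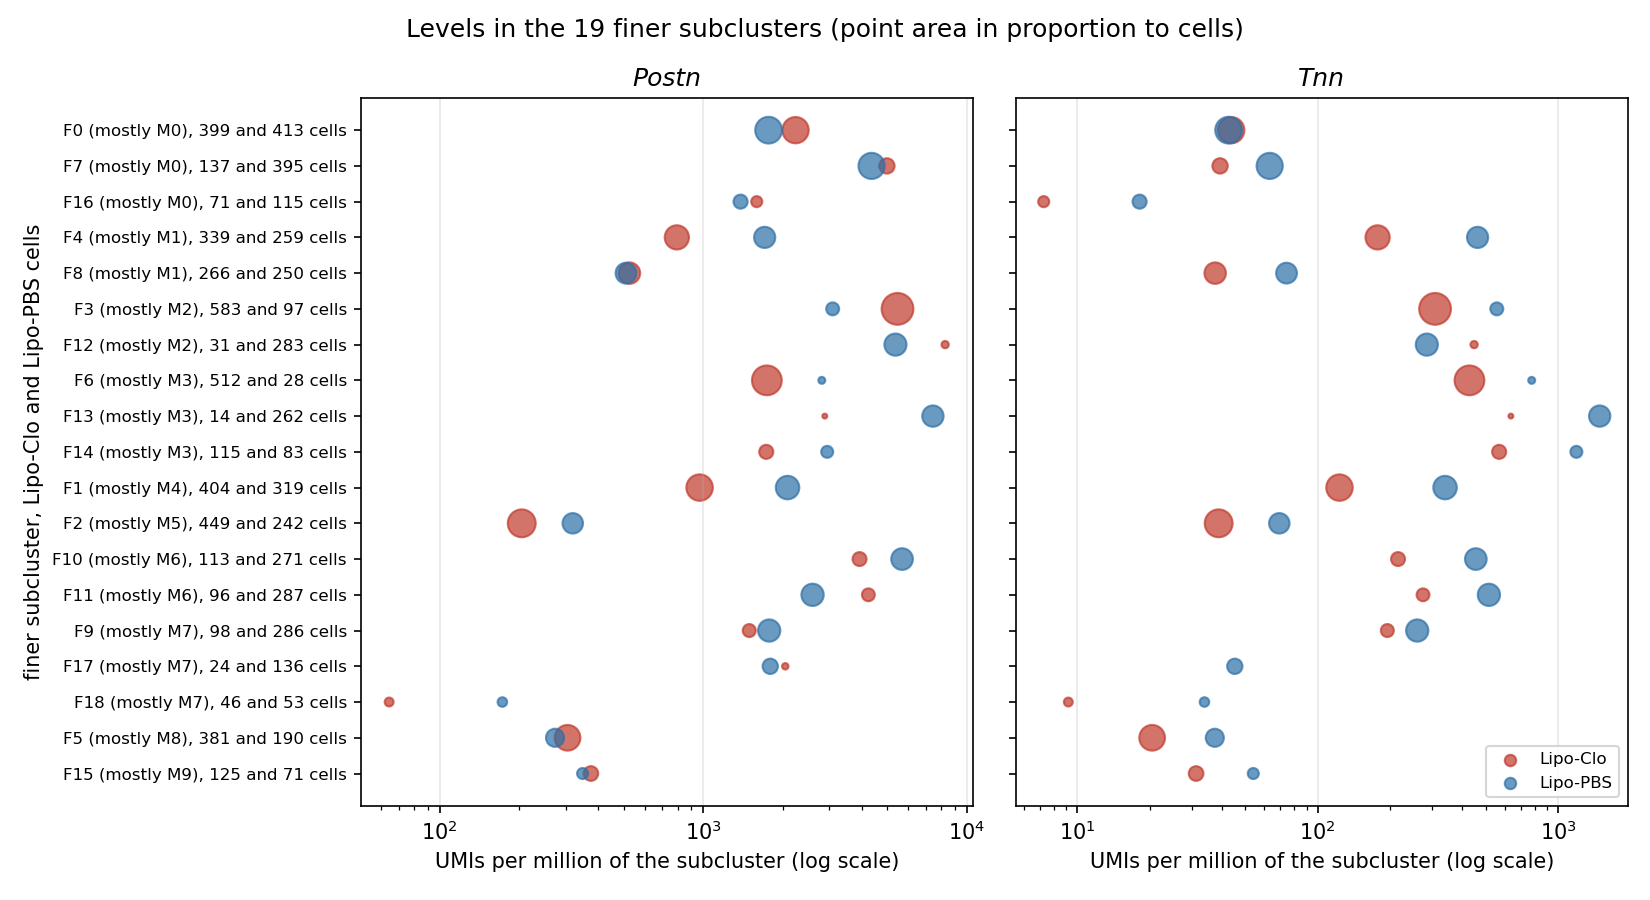
CPM (log scale) of Postn and Tnn in the 19 finer subclusters of the mesenchyme, Lipo-Clo in red and Lipo-PBS in blue, with point area in proportion to the number of cells. In F6 and F13 nearly all cells come from 1 library, and Tnn lies to the left in Lipo-Clo in most subclusters.

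Other markers also differed between the libraries in M3. Of the ligament markers, Scx, a transcription factor of tendon and ligament, was at -1.93 on the log2 scale, Aspn at -1.21, Edil3 at -0.96 and Mkx at -0.80, Pappa2 was at -0.01 and Tnmd was at 0.33. Of the 6 follicle markers, 2 were higher and 1 lower in Lipo-Clo by intervals that left out 0. Together they summed to 263 CPM in Lipo-Clo M3 and 210 CPM in Lipo-PBS M3. Among them, Moxd1 and Bmp3 were at 1.23 and 1.18. The neutrophil markers, S100a8 and S100a9 among them, summed to 452 CPM in Lipo-Clo M3 and 105 CPM in Lipo-PBS M3, and over the 10 states to between 409 and 882 CPM against 88.5 to 164 CPM. Their part in the result was not tested.

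Of the 9 classes outside the mesenchyme with at least 50 Postn UMIs, 6 had less of it in Lipo-Clo and 1 had more, which was glia at 0.27 (0.04 to 0.50). The 6 include the cycling cells, which carried mesenchymal markers and so may not be a lineage apart from the mesenchyme. Over all pairs of a gene and such a class, 13.7% were lower and 14.3% higher. Of the 6 classes lower in Postn, neutrophils belong to the blood classes, whose sum held 206 and 329 CPM, taken here as free RNA. Endothelium (257 and 421 CPM), epithelium (236 and 332 CPM) and macrophages (217 and 340 CPM) were near that level. Postn in cycling cells was at 1048 CPM in Lipo-Clo against 2498 CPM, and its log2 ratio there was -1.25 (-1.38 to -1.13). In the summed blood and lymphoid classes the ratio was -0.68 (-0.82 to -0.53), and in perivascular cells it was -0.68 (-0.85 to -0.52). The classes in that sum differed. Postn was at -1.39 in neutrophils and at -2.07 in T or NK cells, the latter from 7 and 31 UMIs. In B cells (-0.10) and erythroid cells (-0.19) its interval held 0. The part of free RNA in the difference of the vessel classes was not tested. Sparc went the other way in vessels, at 0.41 (0.33 to 0.49) in endothelium and 0.25 (0.18 to 0.31) in perivascular cells. In the summed blood classes Sparc was at -0.33 (-0.40 to -0.26), with -1.01 in neutrophils. Its interval held 0 in B cells (-0.10), T or NK cells (-0.19) and erythroid cells (0.08). Sparcl1, in its own classes, was at -0.07 (-0.17 to 0.04) in perivascular cells and 0.15 (-0.04 to 0.35) in endothelium, and neither interval left out 0. Epithelial Tnc was at -0.04 (-0.23 to 0.15). Thbs4 was higher in Lipo-Clo in perivascular cells, at 1.13 (0.64 to 1.62) from 85 and 65 UMIs. It was lower in 5 of the 8 classes with at least 50 of its UMIs. The 5 were epithelium, at -1.22 (-1.51 to -0.93), macrophages, and the blood classes neutrophils, B cells and erythroid cells. In the summed blood classes Thbs4 was at -0.81 (-1.04 to -0.58). Thbs4 levels in perivascular cells (108 and 49.3 CPM), epithelium (59.3 and 138 CPM) and macrophages (33.7 and 128 CPM) were near or below those of the blood classes, taken here as free RNA.

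Genes related to these by family, receptor or matrix were described over the same mesenchyme. Beside each list stand all 4719 genes in use, of which 5.09% were past 1.5-fold lower and 0.869% past it higher. The median log2 ratio of all genes in use was -0.01, and lists of this size give coarse shares. Of 9 other genes of the same families, 5 were in use and 0 were past 1.5-fold, with a median log2 ratio of -0.31. The lowest were Smoc2 (-0.44), a calcium-binding relative of Sparc, and Fstl1 (-0.32), and the highest were Tgfbi (-0.04), the relative of periostin, and Spock1 (-0.13). Of 21 receptors, 11 were in use, 2 were past 1.5-fold lower and 0 higher, with a median of -0.31. The 2 were Itgb1 (-0.76), the integrin subunit shared by most collagen and tenascin receptors, and Egfr (-0.96).

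Of 20 matrix partners and processing enzymes, 18 were in use, 3 were past the limit lower and 0 higher, and the median was -0.19. The 3 were Col14a1 (-1.23) and Col12a1 (-0.82), collagens that sit on the surface of collagen I fibrils, and the fibril-binding proteoglycan Dcn (-0.76). Col1a1 itself was at 0.15, and Bmp1, the protease that trims procollagen and is known to bind periostin, was at 0.06. Of 6 CCN proteins, which are also matricellular, 3 were in use and 1, Ccn2 (-1.30), was past the limit lower, with a median of -0.09 over the 3.

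In the annotation used here (GENCODE M21, build GRCm38), Tnc overlaps 8030451A03Rik, Thbs3 overlaps Mtx1 and Sparcl1 overlaps Gm26703, each on the opposite strand. Whether counting used the strand is not given in the sources used here, and sharing of reads within these pairs was not tested.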

How the data were processed

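The authors deposited raw UMI counts for each gene in each called cell. The file headers name Cell Ranger 8.0.0, while the submitters' processing notes list Cell Ranger 3.1.0, Seurat 3.1.1 and builds GRCm39 and mm39. Depth was 31053404 UMIs in 9362 cells (Lipo-Clo) and 30537834 in 9653 cells (Lipo-PBS). Computed here: cells needed 200 genes and no more than 20% mitochondrial UMIs, after which those with the highest Scrublet scores at 0.8% per 1000 cells (632 and 633 cells) were removed, because the automatic threshold called 0 and 1. Counts were scaled to 10000 per cell, and Leiden clusters at resolution 1 were drawn from 2000 variable genes without the 10 members, with 30 principal components and 20 neighbours (scanpy 1.11.5, leidenalg 0.10.2), with no batch correction. Clusters took names from marker lists, with at least 3 markers 2-fold above the median cluster. Mesenchyme was clustered again at resolution 0.6, and at 1.2 for the finer subclusters. UMIs were summed per library and class and divided by the class total (CPM).

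Ratios have exact conditional intervals and levels exact Poisson intervals, shares exact Clopper-Pearson ones, at 95%. Called means past 1.5-fold by size. The ratio and its interval were tested on simulated data. Named genes are all 10 members, the 3 genes most like each over the states with at least 50 cells per library, and from each list those past 1.5-fold, or else the 2 largest each way. A gene among those most like a member is not reported here. The members and lists were chosen with earlier results of these data known. The alternatives include edgeR 4.0.16 and DESeq2 1.42.0 scaling. Promoters are from RefSeq on GRCm38.p6, a build other than that of the submitters' notes, and no coordinates were converted.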

Additional observations from a re-analysis of the deposited data

Results flagged for a closer look

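For 6 of the 9 genes in use, mesenchymal states differed in direction between Lipo-Clo and Lipo-PBS, by 95% counting intervals on opposite sides of 0 in states with at least 50 of the gene's UMIs. The same held for 8.09% of all 4719 genes in use, and abundant genes have narrower intervals. With 1 library per group this difference was not tested. The values are log2 ratios, Lipo-Clo over Lipo-PBS, for the state with the lowest and the state with the highest ratio among those intervals. Postn was at -1.84 in unnamed M3 and 0.21 in follicle-like M2. Tnc was at -1.16 in odontoblast-like M9, where the 2 libraries held 40 and 45 of its UMIs, and at 0.72 in ligament-like M6. Thbs3 was at -1.26 in osteoblast or cementoblast-like M1 and 0.64 in M6. Thbs4 was at -1.79 in pulp-like M8, where it was near its level in blood cells, and 0.14 in fibroblast-like M0. Sparc was at -0.47 in M3 and 0.16 in M0. Sparcl1 was at -1.17 in M6, from 12 and 92 UMIs, and 0.49 in M2. Sparcl1 in M6 (26.2 and 59.0 CPM) was near its level in the blood classes (29.5 and 50.8 CPM).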

How the results depend on the processing

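No paired analysis was possible because each group has 1 library. Of the 3 genes past 1.5-fold lower, Tnn stayed past it under all 14 alternatives for the ratios (from -1.16 to -0.73 on the log2 scale), Tnxb under 12 and Thbs3 under 9, and no called ratio changed sign. Values below are log2 ratios outside the counting interval of the main value, and the cause of each shift was not tested. TMM factors gave -0.48 for Postn and -0.018 for Sparc, leaving haemoglobin, ribosomal protein and mitochondrial genes out of the totals -0.54 and -0.079, stricter cells (500 genes, 10% mitochondrial) -0.55 and -0.087, and resolution 0.5 gave -0.55 for Postn. Sparc was at -0.039 with doublets kept and at -0.036 at resolution 2.

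Counting unnamed clusters with mesenchymal markers as mesenchyme gave -0.32 for Postn, 0.44 for Tnc, -0.73 for Tnn, -0.10 for Thbs2, -0.17 for Thbs4, 0.092 for Sparc, -0.23 for Sparcl1 and a median of -0.23. Thinning cells to 1000 UMIs gave -0.39 for Postn, 0.33 for Tnc, -0.16 for Thbs2, -0.47 for Thbs3, -0.24 for Thbs4, -0.014 for Sparc and a median of -0.24. The mean over scaled cells gave -0.38 for Postn, 0.50 for Tnc, -0.86 for Tnn, -1.03 for Tnxb, -0.45 for Thbs3, -0.22 for Thbs4 and -0.11 for Sparcl1. The same mixture of subclusters gave 0.010 for Tnc, -1.16 for Tnn, -0.34 for Tnxb, -0.40 for Thbs2, -0.38 for Thbs3, -0.21 for Thbs4 and -0.18 for Sparc, and left 1 gene past 1.5-fold lower.

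Chosen after seeing the data, leaving out the haemoglobin-led state gave -0.58 for Postn, 0.19 for Tnc, -1.05 for Tnn and -0.10 for Sparc. The same mixture of finer subclusters, also chosen then, gave -0.084 for Postn, -0.037 for Tnc, -0.077 for Tnxb, -0.17 for Thbs2, -0.11 for Thbs3, -0.088 for Sparc, a median of -0.088 and 1 gene past 1.5-fold lower. A 2-fold limit left 1 gene lower, and a limit of 0.32 on the log2 scale or all genes with at least 20 UMIs gave 4. Of 20 places of mesenchyme among the classes, 13 were kept when shares of cells thinned to 1000 UMIs replaced CPM.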
